A study of Arabidopsis with 12 samples.

Results

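The genotype by light interaction was the change that light produced in flu/toc33-1 seedlings minus the change it produced in flu seedlings, measured for every expressed Arabidopsis gene. All 12 of the 12 libraries entered it, 3 from each of 4 groups, and 19667 of 27655 genes passed the filter of at least 1 TPM (transcript abundance scaled to a fixed library total) in at least 3 libraries. Each response is a difference of log2(TPM + 1) between lit and dark seedlings, so a positive interaction means that the light-minus-dark difference was higher in the double mutant and a negative one that it was lower. The comparison addresses whether loss of the import receptor TOC33 alters the nuclear response that flu seedlings mount when light follows darkness.

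FLU restrains chlorophyll synthesis in the dark, and flu mutants therefore build up protochlorophyllide, a pigment that produces singlet oxygen inside the plastid when light returns. Singlet oxygen made in this way is known to change nuclear gene expression through plastid-to-nucleus signalling that depends on the thylakoid-associated EXECUTER proteins. TOC33 is a GTPase of the outer envelope that recognises precursor proteins at the plastid protein import machinery.

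The dark groups were flu and flu/toc33-1 seedlings grown in continuous light at 22 °C and then held for 4 h in darkness. The lit groups of both genotypes had the same 4 h of darkness followed by 1 h of light. All 4 groups carried the flu mutation, and no wild type or toc33-1 single mutant was analysed here. The sample titles give an age of 7 d, the series text gives a younger age, and the tissue is labelled as leaf although the titles speak of seedlings. The lit groups were harvested 1 h later than the dark groups, so light and elapsed time or clock phase cannot be told apart. Whether replicates were grown as separate cultures is not in the labels, and the p-values therefore cover the variation among these libraries alone, part or all of which may be technical.

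Replicates within a group had Pearson correlations of 0.992 to 0.996 over genes. Any pair of replicates differed by a median of 0.0653 to 0.155 log2 per gene, with flu dark replicate 3 farthest from its partners. The leaf mesophyll markers RBCS1A, LHCB1.3 and RCA were abundant in all groups, with group means of at least 4871 TPM for LHCB1.3. In the double mutant LHCB1.3 was lower, at 7400 to 7930 TPM in the dark and 4724 to 5095 TPM in the light. Flu libraries held 13564 to 18052 TPM. TPM values carry no library depth, so no counting error could be attached to single values, and in whole seedlings fewer cells of a type and less RNA per cell cannot be told apart.

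TOC33 (AT1G02280) checked the genotype labels. Flu dark libraries held 200.4, 194 and 215 TPM, and flu light libraries 169, 174 and 173 TPM. In flu/toc33-1 it stood at 48.4, 48.2 and 49.4 TPM in the dark and 4.28, 3.88 and 3.76 TPM in the light. The double mutant libraries were below every flu library in both conditions, but their dark level was not close to 0, and the drop with light in the double mutant gave an interaction of -3.08 ± 0.0684 (SE; limma, Benjamini-Hochberg adjusted p = 7.21e-13). How the residual TOC33 signal of the dark double mutant bears on other genes was not tested. FLU itself gave an interaction of 0.07 (95% interval -0.05 to 0.20; limma, Benjamini-Hochberg adjusted p = 0.297).

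The interaction was broad across the transcriptome. With limma on log2(TPM + 1) and Benjamini-Hochberg adjustment at 0.05, 11151 genes (56.7% of those tested) had an interaction, 6220 higher (31.6%) and 4931 lower (25.1%) in the double mutant. Large interactions leaned the other way, with 890 genes higher and 1445 lower by at least 2-fold. The median over all genes tested was 0.0654, and under median-ratio rescaling the split became 4872 higher and 6220 lower, so 55.8% of the calls were higher as deposited and 43.9% after rescaling. Read against 56.7%, a call by itself says little about a gene, and the sizes and directions below carry the description. Interactions given below passed this threshold unless they are said not to have been called.

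The separate responses were broad in both genotypes. In flu, 5547 genes (28.2%) rose and 6571 (33.4%) fell after 1 h of light, and in flu/toc33-1 7939 (40.4%) rose and 6025 (30.6%) fell. These 2 responses share no library, and across the 19667 genes, which are not independent replicates, their Pearson correlation was 0.638. Genes changed at least 2-fold in either genotype numbered 4364, of which 1295 passed in both. The response of a gene was called lost when at least a 2-fold change in flu came with less than 0.5 log2 in the double mutant. It was called gained when at least a 2-fold change in the double mutant came with less than 0.5 in flu. Responses of the same sign, at least 0.5 in each genotype, were weaker or stronger when they differed by at least 0.5. Such responses were kept when they differed by less. Reversed responses had opposite signs with at least 0.5 in each. For weaker, stronger, kept and reversed genes a 2-fold change in either genotype was enough. Lost, weaker, stronger, gained and reversed genes all had a called interaction.

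By this rule 690 genes (3.51%) lost their response, 622 (3.16%) had a weaker one, 920 (4.68%) kept it, 1055 (5.36%) had a stronger one, 914 (4.65%) gained one and 98 (0.498%) reversed. Among rises of flu, 519 were lost, 556 weaker and 543 kept. Among falls of flu, 171 were lost, 66 weaker and 377 kept. Kept genes needed a 2-fold change in either genotype, so the kept counts are not shares of the flu totals that follow. Flu had 1799 rises and 713 falls of at least 2-fold in all. Lost responses were rises in about that proportion (519 of 690), while weaker ones were more often rises (556 of 622). The class sizes move with the cut-offs, and lost genes numbered 146 with a 4-fold threshold and 1425 with a 1.5-fold one. Gains were of both kinds, with 551 rises and 363 falls, and so were stronger responses, with 480 rises and 575 falls.

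**Figure D1:**
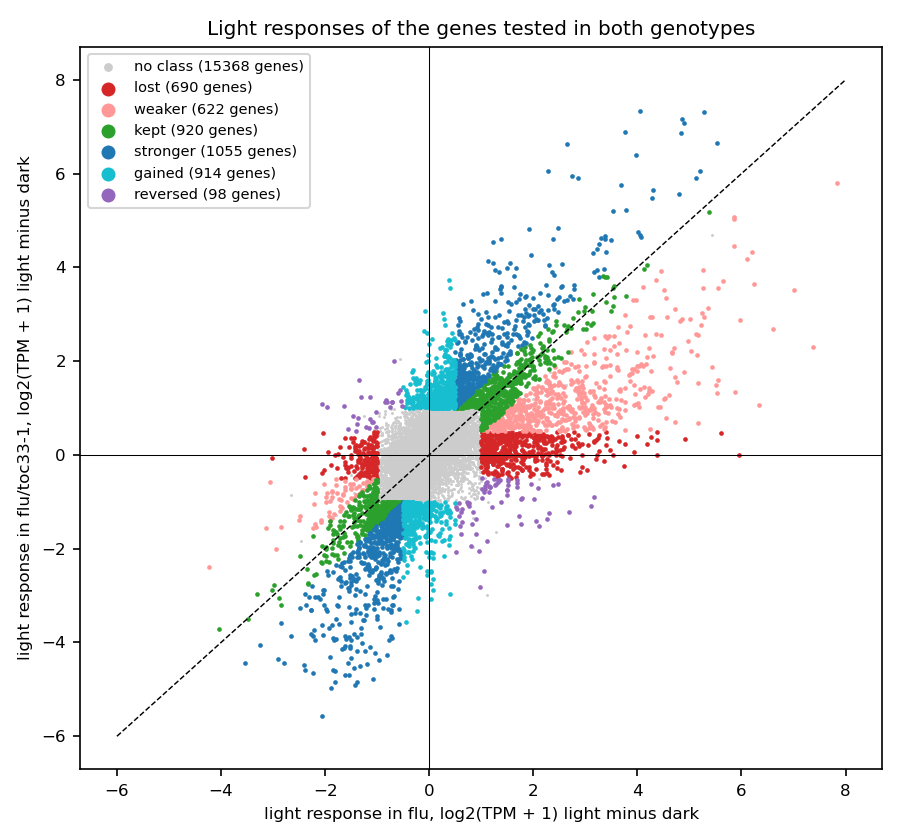
Light response of each gene in flu (horizontal axis) and in flu/toc33-1 (vertical axis), both as log2(TPM + 1) in light minus dark, coloured by response class. Points on the diagonal respond alike; lost rises lie near the horizontal axis on the right, gained responses near the vertical axis, and stronger falls below the diagonal on the left.

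The early singlet oxygen response had the lowest median interaction of all lists. Of 27 genes known to rise soon after re-illumination of flu, and therefore chosen for a flu response, all 27 had a lower response in the double mutant, with a median interaction of -2.65 against 0.0654 over all genes. Their median light response was 3.77 in flu and 0.78 in flu/toc33-1. By class, 8 were lost, 15 weaker and 2 reversed.

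NAC102 (AT5G63790), a NAC transcription factor, stood at 85.5, 90.9 and 92.9 TPM in flu dark and 619, 649 and 629 TPM in flu light. In flu/toc33-1 it stood at 78.9, 79.2 and 76.7 TPM in the dark and 86.3, 87.7 and 86.4 TPM in the light. Only the flu light libraries were high, and those of the other 3 groups lay close together. The interaction was -2.66 ± 0.05098 (SE; limma, Benjamini-Hochberg adjusted p = 2.75e-13). ERF6 (AT4G17490), an ethylene response factor, showed the same arrangement. It stood at 12.5, 13.2 and 15.4 TPM in flu dark, 169, 171 and 164 TPM in flu light, 13.3, 11.5 and 11.5 TPM in double mutant dark and 12.7, 11.1 and 12.6 TPM in double mutant light, an interaction of -3.53. BAP1 (AT3G61190), a membrane-associated suppressor of cell death, rose from 1.62, 1.67 and 2.19 TPM to 24.4, 25.2 and 25.4 TPM in flu. Its double mutant values were 3.55, 3.08 and 3.27 TPM in the dark and 3.01, 3.37 and 2.7 TPM in the light, which overlapped, and the interaction was -3.304.

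Other singlet oxygen genes still rose in the double mutant, but by less. ZAT12 (AT5G59820), a zinc finger factor of oxidative stress, rose from 5.91, 6.54 and 7.02 TPM to 263, 270.5 and 262 TPM in flu and from 8.95, 7.66 and 7.73 TPM to 51.4, 54.6 and 52.6 TPM in the double mutant, with an interaction of -2.59. All lit values of both genotypes were above all dark values, and those of flu were the highest. WRKY40 and WRKY33, factors of pathogen and stress responses, had interactions of -3.77 and -2.65 and were both weaker. ERF105 (AT5G51190) was listed at 0 TPM in all 6 dark libraries, at 170.0, 162 and 160.2 TPM in flu light and at 7.85, 2.88 and 2.47 TPM in double mutant light. The smallest interactions of the list were those of SIB2 at -0.51, a nuclear gene for a plastid sigma factor binding protein, and of AT1G57630 at -0.56.

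Transcription factor families differed in their interactions. Some of their members, such as ERF5, WRKY33, WRKY40 and NAC102, were also in the singlet oxygen list, so the counts overlap. The same holds for CML38 among the calcium signalling genes described below. Among 19 ethylene response factors found by gene symbol or synonym, 16 were lower and 1 higher, with a median interaction of -2.14. Of 38 WRKY factors, 23 were lower and 6 higher, with a median of -0.51. NAC factors were divided, with 26 of 67 lower and 16 higher and a median of 0.01, a value whose sign changed with the scaling. Of 64 MYB factors 27 were higher and 14 lower.

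WRKY30 (AT5G24110) had one of the lowest interactions of any gene with at least 10 TPM in a group. It stood at 1.099, 0.746 and 0.715 TPM in flu dark and rose to 147, 154 and 144 TPM in flu light. The double mutant held 0.554, 1.22 and 0.958 TPM in the dark and 3.04, 2.96 and 2.91 TPM in the light. Its lit double mutant libraries were above its dark ones but far below lit flu, and the interaction was -5.27 ± 0.164 (SE; limma, Benjamini-Hochberg adjusted p = 1.54e-11). WRKY18, a partner of WRKY40 in defence regulation, had an interaction of -3.52, and the NAC factors ATAF1, NAC032 and RD26 had -2.38, -2.1 and -2.71. AT2G22880 stood at 55.1, 56.9 and 70.96 TPM in flu light and was listed at 0 in all 6 double mutant libraries and all flu dark libraries. TDR1 (AT3G23230), an ethylene response factor gene, also lost its rise, from 0.899, 0.9001 and 0.764 TPM to 84.2, 95.2 and 90.6 TPM in flu against 1.01, 0.822 and 0.711 TPM in the dark and 1.58, 1.85 and 1.21 TPM in the light in the double mutant.

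Kinase and calcium signalling genes were also less induced by light. Of 20 calmodulin-like and MAP kinase cascade genes, 17 were lower and 0 higher, 7 lost and 8 weaker, with a median interaction of -1.21. MPK3 (AT3G45640), a MAP kinase of defence signalling, stood at 64.3, 64.5 and 55.4 TPM in flu dark, 419, 407 and 426 TPM in flu light, 51.97, 50.6 and 52.2 TPM in double mutant dark and 56.8, 61.6 and 59.2 TPM in double mutant light. Lit flu stood apart, and the interaction was -2.55 ± 0.07597 (SE; limma, Benjamini-Hochberg adjusted p = 1.02e-11). MKK9, a kinase that activates MPK3, had an interaction of -2.09, and its response went from 1.78 in flu to -0.31 in the double mutant. CML38 (AT1G76650), a calmodulin-like protein, rose from 8.75, 7.15 and 6.93 TPM to 112, 118 and 110.0 TPM in flu and stood at 5.22, 6.02 and 4.405 TPM in the dark and 3.92, 4.93 and 4.02 TPM in the light in the double mutant. OXI1, a kinase known for its part in singlet oxygen induced cell death, still rose in both genotypes, with responses of 4.502 in flu and 3.52 in the double mutant and an interaction of -0.99. MPK4, MKK2 and MKK5 had no called interaction, with values of -0.01, 0.01 and -0.24. Of 19 U-box proteins, many of them ubiquitin ligases, 12 were lower and 1 higher, and of 54 receptor-like and leucine-rich repeat kinases 31 were lower and 12 higher.

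Most abscisic acid and cold or drought genes had a weaker rather than a lost response. Of 19 abscisic acid response genes, 18 were lower and 0 higher, with a median light response of 2.86 in flu and 1.54 in the double mutant. By class 14 were weaker, 1 was lost and 1, RD26, reversed. RD26 rose from 21.1, 20.0 and 22.6 TPM to 71.0, 74.7 and 79.3 TPM in flu. In the double mutant it fell from 28.5, 32.1 and 28.6 TPM to 14.4, 14.8 and 15.8 TPM. NCED3 (AT3G14440), which catalyses the rate-limiting step of abscisic acid synthesis, stood at 1.28, 0.959 and 0.687 TPM in flu dark and 68.5, 68.9 and 67.98 TPM in flu light. In the double mutant it stood at 0.578, 0.479 and 0.434 TPM in the dark and 5.73, 5.55 and 5.33 TPM in the light. Dark values were low in both genotypes, and lit flu exceeded every lit double mutant library, with an interaction of -3.02 ± 0.135 (SE; limma, Benjamini-Hochberg adjusted p = 4.45e-10).

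RD29A (AT5G52310), a dehydration and cold effector, rose from 12.6, 13.2 and 12.7 TPM to 513, 524 and 524 TPM in flu and from 12.2, 12.2 and 12.4 TPM to 105, 111 and 104 TPM in the double mutant. Its dark values were close in both genotypes, lit flu was the highest group, and the interaction was -2.21. CYP707A3, which inactivates abscisic acid, lost its rise, with 3.24 in flu and 0.35 in the double mutant. KIN1 and COR6.6, cold-induced genes, kept theirs. Of the 6 CBF and DREB factors, which activate cold and drought genes, all 6 were lower, 2 lost and 4 weaker, with a median interaction of -2.07. CBF2 (AT4G25470) stood at 1.07, 0.785 and 0.956 TPM in flu dark, 51.5, 46.3 and 51.6 TPM in flu light, 2.6, 2.63 and 1.88 TPM in double mutant dark and 4.62, 4.25 and 4.47 TPM in double mutant light. Both genotypes rose, by 4.71 and 0.70, and the lit flu libraries were far above the rest.

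In the hormone pathways of defence most called genes were lower, with some genes higher in each list. Jasmonate synthesis had 6 of 12 genes lower and 3 higher, and jasmonate signalling and turnover 14 of 20 lower and 3 higher. The synthesis gene LOX2 fell in flu, from 134, 138 and 112 TPM to 65.6, 66.8 and 67.8 TPM. In the double mutant it stood at 31.6, 30.3 and 32.0 TPM in the dark and 32.5, 36.0 and 33.8 TPM in the light. The lipoxygenases LOX3 and LOX4 and the cyclase AOC3 were weaker, with interactions of -1.82, -1.94 and -1.77. AOS (AT5G42650), the allene oxide synthase between those steps, kept its response. It stood at 41.3, 42 and 34.8 TPM in flu dark and 109.6, 110.3 and 108 TPM in flu light, and at 21.05, 19.9 and 19.3 TPM and 57.7, 57.7 and 58.9 TPM in the double mutant. Its double mutant level was lower in both conditions while its rise differed by 0.03 (95% interval -0.16 to 0.22), which was not called. The repressors JAZ1 and JAZ5 had interactions of -2.02 and -1.97. The master factor MYC2 (AT1G32640) stood at 73.3, 74.7 and 70.5 TPM in flu light and 19.1, 23.3 and 25.1 TPM in double mutant light, above dark values at or near 0 in both.

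Of 15 salicylic acid and EDS1 genes, 10 were lower and 2 higher, with a median interaction of -0.79. CBP60G and SARD1, factors that drive salicylic acid synthesis, had interactions of -1.91 and -1.74, and the immune regulator EDS1 (AT3G48090) stood at 59.7, 56.4 and 57.2 TPM in flu light against 15.4, 15.1 and 15.2 TPM in double mutant light from 12.3, 12.5 and 10.98 and 9.58, 8.94 and 8.54 TPM in the dark. PR1 and PR5, pathogenesis-related output proteins, were the 2 called higher, with 1.41 and 1.09, and the synthesis gene ICS1 gave 0.28, which was not called. PR1 stood at 31.8, 33.7 and 34.3 TPM in flu dark and 14.4, 13 and 15.1 TPM in flu light, against 0.411, 0.416 and 0.329 TPM and 0.564, 0.499 and 0.819 TPM in the double mutant. Its higher interaction was thus a fall in flu beside a double mutant level under 1 TPM in every library. In ethylene synthesis and signalling 12 of 20 genes were lower and 2 higher. ERF1, an ethylene output factor, lost its rise with -2.14, and the synthesis gene ACS6 was weaker with -1.45. Of the receptor genes, ERS1 was lower with -1.33 and ERS2 with -0.48, while ETR1, ETR2 and EIN4 had no called interaction.

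Among indole glucosinolate and camalexin synthesis genes, 14 in number, 9 were higher and 4 lower. The factor MYB51, the P450 CYP81F2 and the methyltransferase IGMT1, which modify or drive indole glucosinolates under attack, were lower with -2.65, -2.09 and -2.71. The core structure genes SUR1, UGT74B1 and CYP83B1 were higher with 1.41, 1.54 and 1.05.

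**Figure D2:**
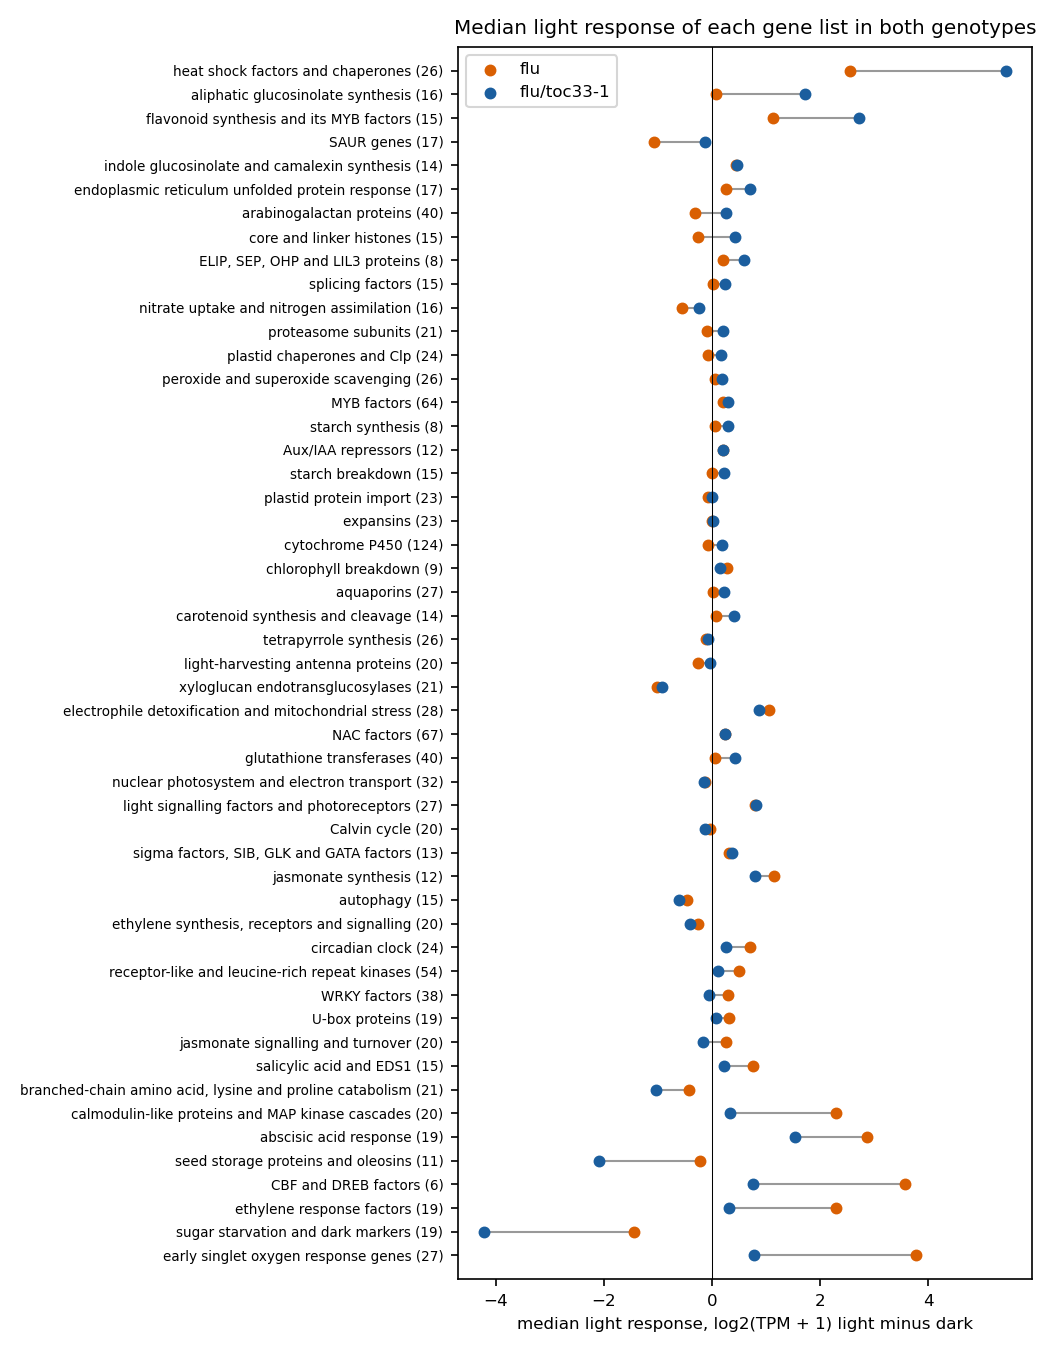
Median light response, log2(TPM + 1) in light minus dark, of each gene list in flu and in flu/toc33-1, with the number of genes tested in brackets and lists ordered by their median interaction. Heat shock, aliphatic glucosinolate and flavonoid lists respond more in the double mutant, while singlet oxygen, ethylene response factor and CBF lists respond less and the starvation list falls further.

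Heat shock genes moved in the opposite direction. Of 26 heat shock factors and chaperones, 24 were higher and 2 lower, with a median light response of 2.55 in flu and 5.44 in flu/toc33-1. By class 19 were stronger and 3 gained. HSP17.4 (AT3G46230), a small heat shock protein, had the highest interaction of all genes with at least 10 TPM in a group. It stood at 1.51, 1.94 and 1.95 TPM in flu dark and 16.9, 15.6 and 16.7 TPM in flu light, and at 0.655, 0.554 and 0.547 TPM and 157, 159.6 and 153 TPM in the double mutant. Dark values were lower in the double mutant and lit values higher than in flu, with no overlap in either condition, and the interaction was 3.995 ± 0.102 (SE; limma, Benjamini-Hochberg adjusted p = 2.4e-12).

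HSP70 (AT3G12580), a cytosolic chaperone, rose from 5.11, 5.49 and 5.67 TPM to 240.5, 245 and 257 TPM in flu and from 4.34, 4.29 and 4.75 TPM to 845, 880.2 and 857 TPM in the double mutant. ROF2 (AT5G48570), an immunophilin that binds HSP90 under heat, rose from 2.87, 3.14 and 2.99 TPM to 25.6, 24.6 and 27.2 TPM in flu and from 2.52, 2.14 and 2.81 TPM to 206, 217 and 219 TPM in the double mutant. Their interactions were 2.03 and 3.21, and in both genes the lit double mutant libraries exceeded every other library. HSFA2 (AT2G26150), a factor that sustains the heat response, stood under 1 TPM in the dark in both genotypes, at 52.7, 54.4 and 60.8 TPM in flu light and at 118, 120.0 and 114 TPM in double mutant light. HSP21, which is a plastid small heat shock protein, and HSP22.0 of the endoplasmic reticulum were gained, with responses of 0.39 and 0.38 in flu and 3.56 and 3.74 in the double mutant. HSP23.6-MITO of mitochondria was stronger with an interaction of 3.79. HSFA3 and HSFB2A were the 2 called lower, with -1.27 and -0.24.

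Genes of the unfolded protein response, which acts on protein folding in the endoplasmic reticulum, differed in direction. Of 17 genes, 12 were higher and 4 lower, with a median of 0.70. CNX1 (AT5G61790), the lectin chaperone calnexin, stood at 86.3, 87.2 and 82.7 TPM in flu dark, 109.5, 107 and 112 TPM in flu light, 74.8, 75.99 and 76.2 TPM in double mutant dark and 238, 230.1 and 225 TPM in double mutant light. The chaperones BIP1, BIP2, TMS1 and ERDJ3B were also higher, by 1.19, 1.04, 1.35 and 1.101. BZIP60 (AT1G42990), a membrane-tethered factor of this response, moved the other way. It rose from 43.3, 43.3 and 40.9 TPM to 279.8, 288 and 287 TPM in flu and from 39.1, 39.5 and 40.1 TPM to 115, 116 and 112 TPM in the double mutant, an interaction of -1.21. NAC062, another membrane-tethered factor, had -2.17. CRT3 (AT1G08450), a calreticulin and so also a lectin chaperone, was lower, with -0.23, and stood at 53.1, 50.6 and 54.1 TPM in flu light against 40.9, 44.1 and 41 TPM in double mutant light. Of other factor genes, BZIP28 was lower with -0.39, and NAC103 had 0.01, which was not called.

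**Figure D3:**
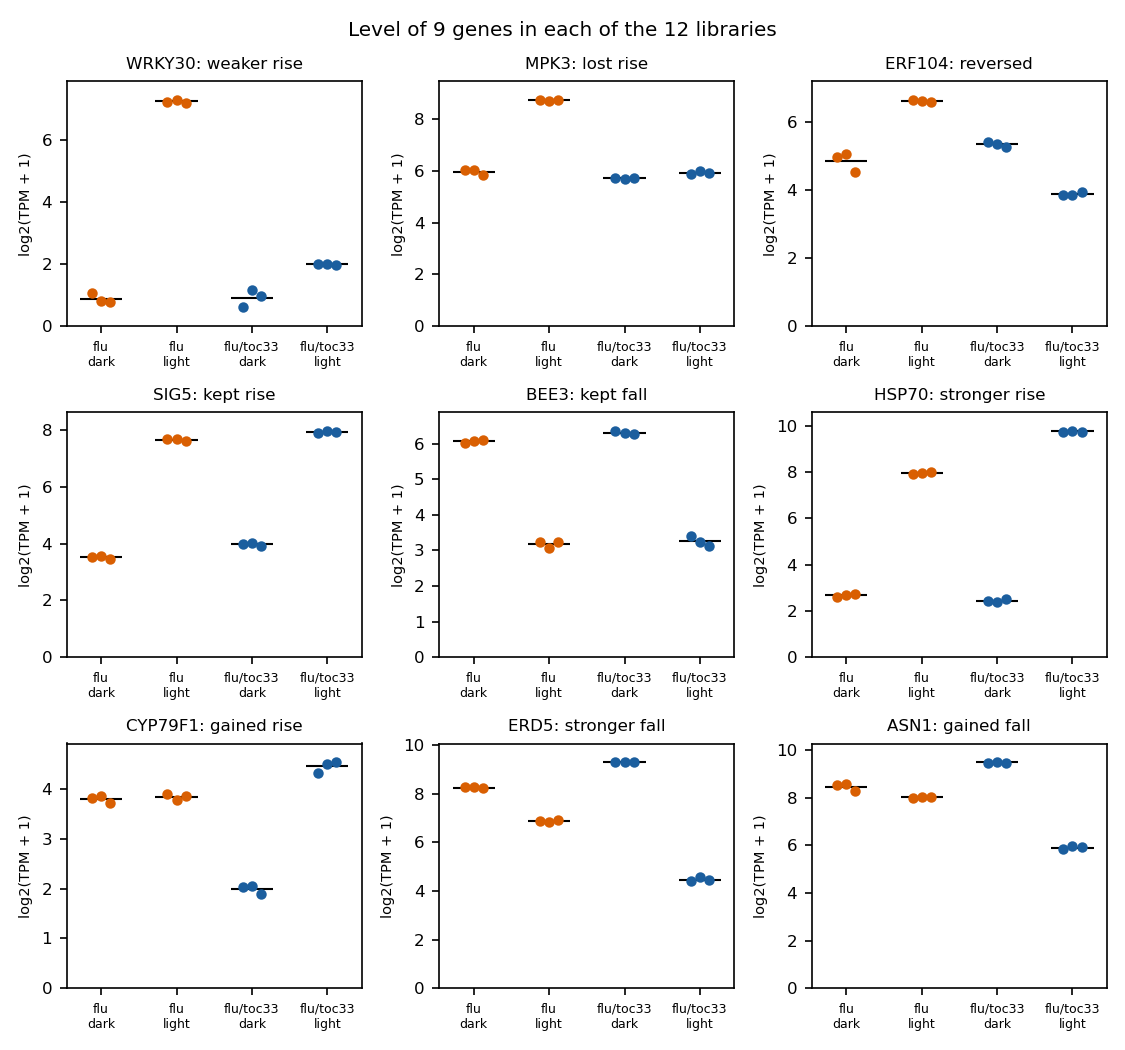
Level of 9 genes as log2(TPM + 1) in each of the 12 libraries, with each group mean as a bar, 1 panel for each gene and its response class. MPK3 and WRKY30 are high in lit flu alone, HSP70 is highest in the lit double mutant, SIG5 is high and BEE3 low in the light in both genotypes, and ERD5 and ASN1 start higher and end lower in the double mutant.

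Several metabolic pathways gained induction in the double mutant. All 16 aliphatic glucosinolate genes, which make methionine-derived defence compounds, were higher, with a median response of 0.08 in flu and 1.72 in flu/toc33-1, and 11 were gained. CYP79F1 (AT1G16410), which converts chain-elongated methionine to aldoximes, stood at 13.1, 13.4 and 12.1 TPM in flu dark and 13.9, 12.7 and 13.5 TPM in flu light. In the double mutant it stood at 3.08, 3.17 and 2.69 TPM in the dark and 19.04, 21.7 and 22.4 TPM in the light. The flu groups overlapped, the dark double mutant was the lowest group and the lit double mutant the highest, so the interaction of 2.42 ± 0.107 (SE; limma, Benjamini-Hochberg adjusted p = 3.81e-10) combined a dark difference of -1.802 with a lit difference of 0.62. MYB28 (AT5G61420), the main regulator of the pathway, stood at 30.8, 30.8 and 27.4 TPM and 25.5, 29.05 and 27.5 TPM in flu dark and light. In the double mutant it rose from 23.8, 24.3 and 25.3 TPM to 61.1, 66.7 and 66.8 TPM. BCAT4, CYP83A1 and MYB29, other members of the pathway, had interactions of 1.76, 1.85 and 1.87. The list's median genotype difference was -1.05 in the dark and 0.57 in the light, so the double mutant was lower in the dark and higher in the light at the median.

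Flavonoid synthesis and its MYB factors had 13 of 15 genes higher and 1 lower, with a median interaction of 1.298. CHS (AT5G13930), chalcone synthase at the entry to the pathway, stood at 35.8, 39.8 and 38.3 TPM in flu dark, 54.2, 57.5 and 57.3 TPM in flu light, 34.2, 32.9 and 33.8 TPM in double mutant dark and 238, 237 and 233 TPM in double mutant light. The rise was present in both genotypes and larger in the double mutant, with an interaction of 2.22. TT5, FLS1 and UGT78D1, later steps of flavonol synthesis, had 1.81, 1.81 and 1.96, and the regulator PAP1 had 1.18. UGT84A1, a glucosyltransferase of hydroxycinnamates, was the 1 member lower, with -1.18.

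Photoprotective and plastid folding genes were higher in part. Of 8 early light-induced and related proteins, 6 were higher and 1 lower. ELIP1 (AT3G22840), a pigment-binding protein induced by excess light, rose from 1.204, 2.27 and 1.66 TPM to 80.7, 77.3 and 78.4 TPM in flu and from 3.04, 2.19 and 2.98 TPM to 509, 505 and 491 TPM in the double mutant, an interaction of 2.18. PSBS, the protein of rapid thermal dissipation, and the ferredoxin gene FD1 had interactions of 1.46 and 1.56. Of 24 plastid chaperone and Clp genes, 15 were higher and 3 lower, with a median of 0.24. Cpn60beta2 (AT3G13470), a chaperonin subunit, stood at 72.7, 70.1 and 72.4 TPM in lit flu and 259, 274 and 265 TPM in the lit double mutant, from dark values of 57.8, 56.2 and 58.2 and 55.3, 56.1 and 55.2 TPM. Among 23 import genes, 10 were higher and 4, TOC33 included, lower. Over all genes tested, 31.6% were higher and 25.1% lower. After median-ratio scaling 7 import genes were higher and 5 lower. The same scaling gave 11 higher and 4 lower for plastid chaperone and Clp genes, and 5 and 2 for early light-induced and related proteins. TIC20-IV, an inner envelope subunit, had 1.296 and TOC34, the close relative of TOC33, had 0.49.

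Other gained or stronger rises belonged to no list described above. UGT74E2, a glucosyltransferase of indole-3-butyric acid, had an interaction of 3.32, to which a dark genotype difference of -3.203 contributed. NAS1, a nicotianamine synthase of metal transport, went from a response of 0.26 in flu to 3.03 in the double mutant, with genotype differences of -1.09 in the dark and 1.68 in the light. AT5G12110 and AT1G73600 had interactions of 3.23 and 2.61. AT1G13609 had 3.15, with a genotype difference of -3.39 in the dark and of -0.24, not called, in the light, where it stood at 60.2, 51.9 and 59.1 TPM in flu and 44.3, 52.3 and 48.1 TPM in the double mutant.

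Genes of sugar starvation and darkness fell much further in the double mutant. Of 19 such genes, 16 were lower and 3 higher, with a median response of -1.44 in flu and -4.22 in flu/toc33-1. Their class was stronger for 14 and gained for 2. ASN1 (AT3G47340), an asparagine synthetase induced in the dark, stood at 368, 375 and 313 TPM in flu dark and 255, 262 and 258 TPM in flu light. In the double mutant it fell from 709, 727 and 696 TPM to 55.7, 61.2 and 59.5 TPM. The dark double mutant was the highest group and the lit double mutant the lowest, and the interaction was -3.13 ± 0.0811 (SE; limma, Benjamini-Hochberg adjusted p = 2.63e-12).

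AKINBETA1 (AT5G21170), a regulatory subunit of the energy-sensing SnRK1 kinase, fell from 220.3, 223 and 209 TPM to 79.2, 79.9 and 78.9 TPM in flu and from 278, 287 and 289 TPM to 11.2, 10.9 and 11.6 TPM in the double mutant. DIN10, a dark-inducible gene, and the beta-xylosidase BXL1 had interactions of -3.26 and -3.09. AT3G15450, MIOX2 and PP2-A13 were among the 5 stronger falls that went furthest, with double mutant responses of -5.56, -4.91 and -4.85. The trehalose-phosphate synthase genes TPS8, TPS9 and TPS11 were lower with -2.397, -2.38 and -3.18, while TPS5 was higher with 1.47.

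Amino acid catabolism and autophagy genes moved with them. Of 21 genes for branched-chain amino acid, lysine and proline breakdown, 13 were lower and 2 higher, with a median of -0.81. ERD5 (AT3G30775), a mitochondrial proline dehydrogenase, fell from 304, 304 and 300.2 TPM to 116, 113 and 118 TPM in flu and from 634, 629 and 633 TPM to 20.2, 22.8 and 20.5 TPM in the double mutant. It was higher in the double mutant in the dark, by 1.06, and lower in the light, with a difference of -2.396 on the log2 scale. MCCA, IVD and BCAT-2, mitochondrial enzymes of leucine and related amino acids, had interactions of -3.39, -2.34 and -3.18. Autophagy had 9 of 15 genes lower and 1 higher, and its ubiquitin-like proteins ATG8E and ATG8F had -1.71 and -1.66. Nitrate uptake and assimilation genes had 9 of 16 higher and 3 lower interactions. Their median light response was a fall in both genotypes, -0.56 in flu and -0.25 in the double mutant. The glutamate dehydrogenases GDH1 and GDH2 were lower with -1.17 and -1.95. Starch synthesis had 5 of 8 higher and 0 lower, and starch breakdown 6 of 15 higher and 3 lower, against 31.6% higher and 25.1% lower over all genes tested.

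Circadian clock genes differed among themselves. Of 24 genes, 14 were lower and 4 higher, with a median of -0.47. PRR9 (AT2G46790), a repressor induced by light at dawn, stood at 0.279, 0.271 and 0.312 TPM in flu dark and 54.4, 51.97 and 51.9 TPM in flu light, and at 0.258, 0.239 and 0.321 TPM and 42.5, 46.2 and 46.2 TPM in the double mutant. The interaction was -0.21 (95% interval -0.40 to -0.02; limma, Benjamini-Hochberg adjusted p = 0.0614) and was not called. It passed under 5 alternatives, namely a pseudocount of 5, quantile scaling, median-ratio scaling, the square root of TPM and leaving out flu dark replicate 3 (adjusted p from 0.00195 to 0.035), with -0.32 under median-ratio scaling. CCA1, the morning factor at the core of the clock, gave -0.10 (95% interval -0.24 to 0.04), and LHY, LUX and ELF4 gave 0.01, -0.04 and 0.08, none of them called. GI, a light-induced clock protein, was higher with 0.73. COR27, a repressor of evening clock genes, had -2.43, and the REVEILLE factors RVE1, RVE2 and RVE4 had -1.25, -1.34 and -1.44.

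Light signalling genes often kept their response, in 10 of 27 photoreceptor and light signalling genes. The median interaction was -0.05, with 10 higher and 12 lower, and quantile scaling turned the sign of that median. HY5 (AT5G11260), the factor that promotes photomorphogenesis, rose from 23.4, 22.1 and 23.9 TPM to 77.9, 77.8 and 79.3 TPM in flu and from 33.4, 27.8 and 30.7 TPM to 127, 123 and 124 TPM in the double mutant. Its double mutant values were higher in both conditions, and its interaction was 0.28 (95% interval 0.11 to 0.45). HYH, BBX24 and PHYB were kept as well, with 0.08, 0.30 and 0.36, of which the value for HYH was not called. BBX30, BBX31 and BBX32, small B-box proteins, rose strongly in both genotypes and were weaker by -1.32, -0.78 and -0.81. BBX20 and the photoreceptor genes PHYA and CRY2 fell further in the double mutant, with -2.26, -1.17 and -0.79.

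SIG5 (AT5G24120), a nuclear-encoded sigma factor of plastid transcription, was among the largest kept rises. It stood at 10.6, 10.9 and 10.01 TPM in flu dark, 205, 202 and 197 TPM in flu light, 14.7, 15.2 and 14.2 TPM in double mutant dark and 237, 251 and 245 TPM in double mutant light. Both lit groups were far above both dark groups. The interaction of -0.17 (95% interval -0.30 to -0.04) was called but small, and its sign turned when the square root of TPM was analysed in place of the logarithm. The call was lost with a pseudocount of 5 (limma, Benjamini-Hochberg adjusted p = 0.263) and without any 1 of 5 libraries, flu light replicate 1 or 2, double mutant dark replicate 2, or double mutant light replicate 1 or 3 (adjusted p from 0.0513 to 0.0758). Sigma, SIB, GLK and GATA factors had 6 of 13 genes lower and 2 higher. BEE3 (AT1G73830), a brassinosteroid-regulated growth factor, fell from 63.7, 66.4 and 67.2 TPM to 8.41, 7.46 and 8.402 TPM in flu and from 81.4, 77.4 and 76.2 TPM to 9.58, 8.44 and 7.804 TPM in the double mutant. Its interaction was -0.17 (95% interval -0.38 to 0.03; limma, Benjamini-Hochberg adjusted p = 0.143), so a difference in either direction of more than 0.5 lay outside the interval. The interaction of BEE3 was called under median-ratio scaling, with -0.27, on the square root of TPM and without double mutant light replicate 1 (limma, Benjamini-Hochberg adjusted p from 0.00275 to 0.0434). ABCI21, AT1G48100 and AT3G56260 were other kept rises, with interactions of 0.05, -0.13 and 0.03, none of them called, and AT4G34770 and AT4G34790, both SAUR genes, were the kept falls that reached furthest. The interaction of AT4G34770, not called here, was called with a pseudocount of 5, on the square root of TPM and without flu light replicate 1, where it was 0.50.

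Lists of photosynthesis genes had median interactions near 0. In level the antenna list was lower in the double mutant, with median genotype differences of -0.80 in the dark and -0.52 in the light. Nuclear photosystem and electron transport genes had 6 of 32 higher and 11 lower, with a median interaction of -0.03, and Calvin cycle genes 6 of 20 higher and 7 lower, with -0.05. Antenna genes had 8 of 20 higher and 5 lower with a median of 0.05, which turned negative after median-ratio rescaling. LHCB3 (AT5G54270), an antenna protein of photosystem II, differed from this. It stood at 919.5, 952 and 1102 TPM in flu dark and 848, 868 and 878 TPM in flu light, and at 356, 365 and 364 TPM and 1069.6, 1030.5 and 1038 TPM in the double mutant. The dark double mutant alone was low, and light brought it to a level above lit flu, with an interaction of 1.72. LHCB1.4 and LHCB2.3 fell further in the double mutant, with -3.03 and -1.49, and values of near-identical LHCB1 and LHCB2 copies are uncertain because reads could be divided among them.

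Tetrapyrrole synthesis, in which FLU acts, had 9 of 26 genes higher and 8 lower, with a median of 0.07 that turned to -0.0427 after median-ratio rescaling. HEMA2 (AT1G09940), an isoform of glutamyl-tRNA reductase, reversed. It rose from 29.7, 30.6 and 26.8 TPM to 42.2, 45.9 and 45.5 TPM in flu and fell from 39.1, 39.1 and 39.2 TPM to 12.9, 12.8 and 13.2 TPM in the double mutant, an interaction of -2.12. FC1, the stress-induced ferrochelatase, was weaker with -1.31, and GUN4 and GUN5, which serve magnesium chelatase, were higher with 0.58 and 0.46. CHLM and PORB, later steps of chlorophyll synthesis, were lower with -0.77 and -0.48. Chlorophyll breakdown had 3 of 9 genes higher and 2 lower, and carotenoid synthesis and cleavage 4 of 14 higher and 2 lower.

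Reversed responses were few, and most were rises in flu that became falls. There were 69 of these and 29 of the opposite kind. ERF104 (AT5G61600), an ethylene response factor that is a substrate of MAP kinase signalling, rose from 30.9, 32.3 and 22.2 TPM to 101, 97.6 and 95.3 TPM in flu. In the double mutant it fell from 41.9, 40.1 and 37.8 TPM to 13.5, 13.6 and 14.5 TPM. Dark levels were higher in the double mutant and lit levels lower, without overlap, and the interaction was -3.23 ± 0.144 (SE; limma, Benjamini-Hochberg adjusted p = 4.41e-10). PUP18 and PUP14, purine permease genes, reversed with -3.62 and -3.46. WRKY28 (AT4G18170) rose from 5.08, 4.19 and 4.802 TPM to 51.3, 51.2 and 48.1 TPM in flu and fell from 4.59, 3.89 and 3.77 TPM to 1.89, 1.54 and 1.73 TPM in the double mutant. TCH4 (AT5G57560), a touch-induced xyloglucan endotransglucosylase, rose from 136, 142 and 127 TPM to 229, 242 and 242 TPM in flu and fell from 121, 118 and 121 TPM to 29.6, 31.4 and 29.98 TPM. Of the 21 xyloglucan enzymes as a list, 8 were higher and 10 lower.

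Reversal in the other direction, from a fall in flu to a rise in the double mutant, held BGLU21, a beta-glucosidase, with an interaction of 2.297. AT4G23680 stood at 154, 152 and 159 TPM in flu dark and 89.5, 84.4 and 87.7 TPM in flu light, and at 127, 114 and 126 TPM and 288, 268 and 270.2 TPM in the double mutant. The lit double mutant was the highest group and lit flu the lowest. AT2G14247, AT4G21063 and AT5G58390 had interactions of 2.96, 2.55 and 1.95.

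Falls that were lost in the double mutant included growth genes. Of 17 SAUR genes, auxin-induced regulators of cell expansion, 11 were higher and 2 lower, with a median response of -1.07 in flu and -0.14 in the double mutant. SAUR16 (AT4G38860) fell from 33.4, 35.6 and 31.3 TPM to 9.14, 7.47 and 7.24 TPM in flu and stood at 28.5, 29.6 and 30.1 TPM in the dark and 29.9, 31.4 and 31.2 TPM in the light in the double mutant. Only lit flu was low, with an interaction of 2.01. SAUR20 and SAUR21 (AT5G18030) reversed, with 1.77 and 2.66, and reads of such closely related copies may be divided among them. RTFL16 (AT3G25717), a small peptide gene of the DEVIL family, showed the same loss, from 58.95, 52.1 and 71.7 TPM to 11.3, 9.72 and 10.9 TPM in flu but 42.2, 43.4 and 42.04 TPM and 45.5, 50.9 and 44.3 TPM in the double mutant. Aux/IAA repressors had 5 of 12 higher and 4 lower. The B-box gene BBX15 lost its fall with 1.21. ORS1 (AT2G41230), ORGAN SIZE RELATED 1, fell from 12.9, 14.3 and 10.9 TPM to 1.59, 1.73 and 1.44 TPM in flu, and stood at 1.68, 2.42 and 1.805 TPM in the dark and 0.685, 1.46 and 1.32 TPM in the light in the double mutant. Its interaction of 1.92 thus came with a dark genotype difference of -2.203.

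**Figure D4:**
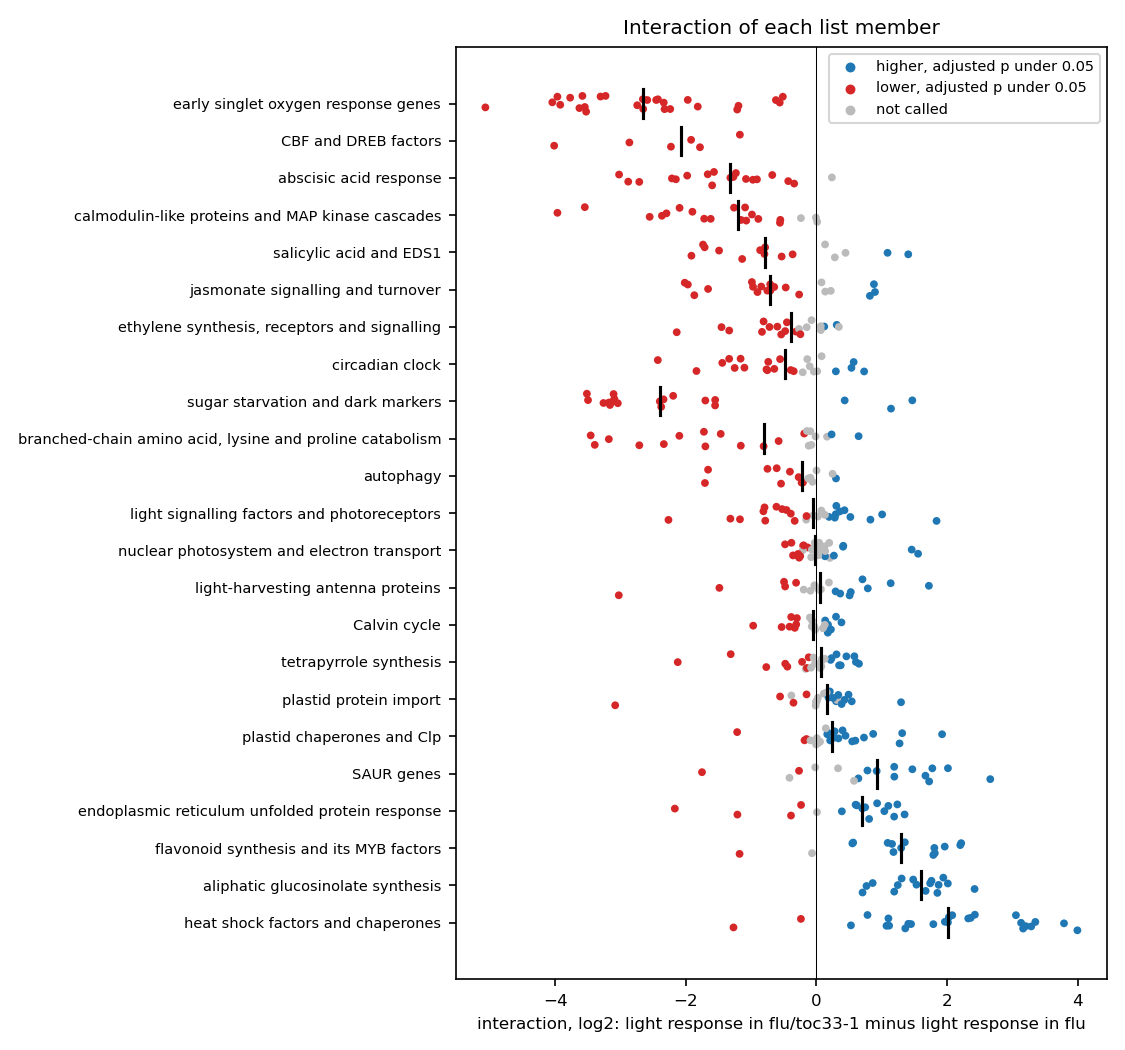
Interaction of each member of 23 gene lists, as the log2 light response in flu/toc33-1 minus that in flu, 1 point for each gene and a black bar for the list median. All singlet oxygen and CBF members lie below 0, all aliphatic glucosinolate members above 0, and photosynthesis lists scatter around 0.

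The interaction equals the genotype difference in light minus that in the dark, so each class can be placed by its 2 genotype differences. Because the classes were drawn from the same libraries, these values are a description. Lost rises lay in the light: their median genotype difference was -0.04 in the dark and -1.54 in the light. Of them, 99.04% were called lower in the lit double mutant, against 27.9% over all genes tested. Only 2.697% had their larger difference in the dark, against 31.8% over all genes tested. Weaker rises were alike, with medians of -0.13 in the dark and -1.53 in the light.

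Lost falls were divided between the conditions. Their median genotype difference was -0.42 in the dark and 0.73 in the light. Of them, 56.1% were already lower in the dark double mutant, against 20.5% over all genes tested. The larger difference was in the dark for 43.3%, against 31.8% over all genes tested. Gained and stronger responses combined opposite differences. Gained rises had a median of -0.23 in the dark and 0.82 in the light, and stronger falls 0.26 in the dark and -0.72 in the light. Of the stronger falls, 62.1% were called higher in the dark double mutant, against 20.9% over all genes, and 92.5% lower in the lit one, against 27.9%.

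**Figure D5:**
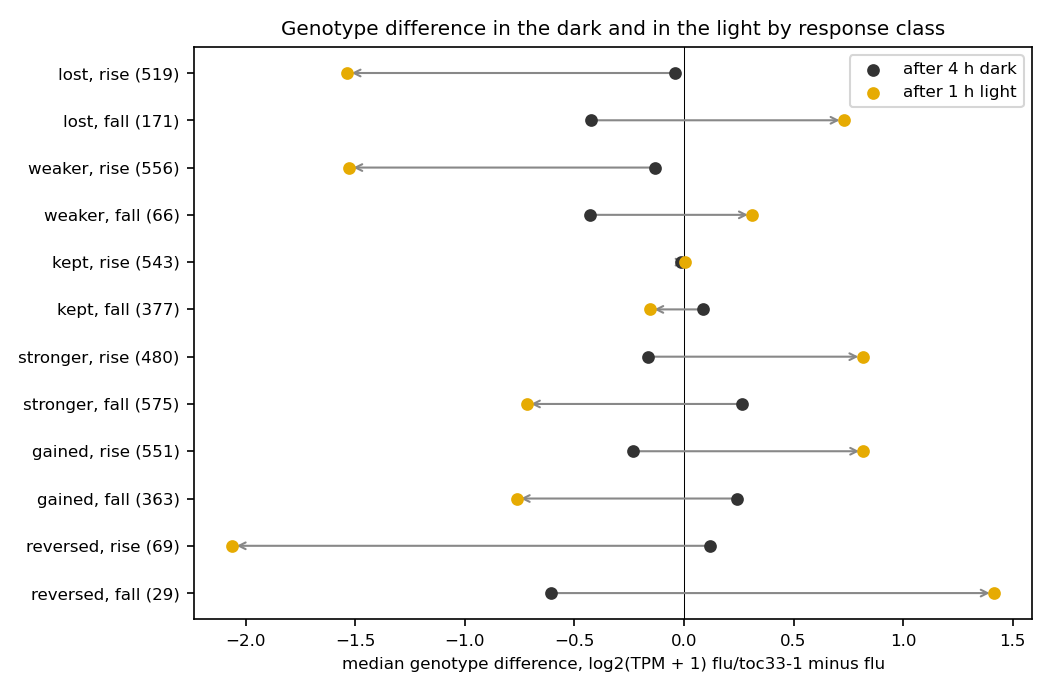
Median genotype difference, log2(TPM + 1) in flu/toc33-1 minus flu, in the dark and in the light for each response class split into rises and falls. Lost and weaker rises differ in the light with dark medians near 0, while gained and stronger responses have dark and lit medians of opposite sign.

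Some markers of other cell types had a called interaction, and their part in the results was not tested. By list, 20% of guard cell, 42.9% of dividing cell and 57.1% of epidermis markers were called, against 56.7% over all genes tested. The share was 75% for root markers, 80% for vascular markers and 72.7% for seed storage genes. Over all genes tested, 31.6% were called higher and 25.1% lower. Seed storage proteins and oleosins had summed levels, in TPM, of 71.6 to 76.9 in dark flu, 24.0 to 30.6 in lit flu, 346 to 1643 in the dark double mutant and 226 to 232 in the lit one. Of 11 such genes 7 were lower and 1 higher, and the 3 dark double mutant libraries differed widely among themselves. SESA1 (AT4G27140), a seed storage albumin, stood at 271, 55.8 and 199 TPM in those libraries and at 16.04, 17.35 and 16.6 TPM in the lit double mutant, and its interaction was -2.83, or -3.51 without double mutant dark replicate 2. Epidermis markers summed to 1284 to 1396, 1488 to 1505, 1504 to 1573 and 2728 to 2766 TPM in the same order of groups, with 4 of 7 called higher, LTP1 by 0.79. Root markers summed to 13.1 to 17.58, 4.05 to 4.74, 16.7 to 21.3 and 16.8 to 19.3 TPM, with 3 of 4 tested markers higher. Vascular markers summed to 783 to 792, 612 to 628, 1024 to 1031 and 654 to 688 TPM, with 3 of 10 called higher and 5 lower. Dividing cell markers summed to 125 to 133, 115 to 118, 132 to 137 and 148 to 152 TPM, with 3 of 7 higher, or 1 of 7 after median-ratio scaling. Guard cell markers summed to 48.6 to 57.3, 48.4 to 52.8, 47.2 to 52.3 and 46.7 to 49.0 TPM, with 1 of 5 higher. No marker was at 0 in all libraries of a group.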

How the data were processed

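The deposited data were a single table by the authors, with a TPM value for each of 48359 transcripts in each of 12 libraries. Per the submitters' processing notes the tools were kallisto 0.46.2 and sleuth 0.30.0 with the TAIR10 build; per the labels' protocols libraries followed a BGI RNA workflow on a DNBSEQ-T7 instrument. TPM keeps no depth, so counting intervals and count models were not used here.

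Transcripts were summed per locus to 27655 genes, and names came from RefSeq TAIR10.1 for 27445 of them. Values were analysed as log2(TPM + 1), with fold changes of low genes understated, for the 19667 genes that reached 1 TPM in 3 or more libraries. A limma 3.58.1 model (R 4.3.3, trended spread) of the 4 group means was tested two-sided at 0.05, adjusted by Benjamini-Hochberg across those genes, and was tested on simulated data. Tables were handled with pandas 2.3.3 and numpy 2.4.6 and figures with matplotlib 3.10.9 (Python 3.11.15).

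Genes were named by rule: TOC33 and FLU, the 8 highest and 8 lowest interactions of genes with a group mean of 10 TPM or above, 5 genes of each class and direction by size of response, and, per list, the 4 genes of lowest interaction p. Other list members named were chosen after their values were seen. There were 42 gene lists and 14 families, described by counts and medians with no set test. The families were found by matching RefSeq gene symbols and synonyms, which may miss members. Rules, lists and the comparison itself were chosen with earlier results of these data known. Alternatives were other pseudocounts, filters, scalings, class cut-offs, a replicate block and leaving out each library. A planned description of promoter motifs was not made, since promoter sequences were not used here.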

Additional observations from a re-analysis of the deposited data

Results flagged for a closer look

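The difference between the light responses of flu and flu/toc33-1 was itself tested, by the interaction term in limma with Benjamini-Hochberg adjustment, and it passed in 11151 genes. Among these are genes whose response changed direction. Rises in flu that became falls in the double mutant included AT2G25735 with an interaction of -3.63, AT1G69890 with -2.98, ERF104 with -3.23, PUP14 with -3.46 and PUP18 with -3.62. Falls in flu that became rises included AT2G14247 with 2.96, AT4G21063 with 2.55, AT5G58390 with 1.95, BGLU21 with 2.3 and AT4G23680 with 1.99. Both responses were called at 0.05 with at least 0.5 log2 in each of these genes. TOC33 also differed, with -3.08, and fell with light in the double mutant from a dark level of 48.2 to 49.4 TPM. Groups held 3 libraries, too few for a test of single outlying libraries.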

How the results depend on the processing

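Over 10 alternative settings the number of genes with an interaction ranged from 9837 to 11572. These extremes rest on different numbers of genes, 16032 tested with a filter at 5 TPM and 25023 with no filter. When 1 library was left out the number ranged from 10312 to 12209, highest without flu dark replicate 3. Calls higher ranged from 5683 to 7120 and lower from 4460 to 5099 on leaving out a library, and those for light in flu from 11029 to 12792 and in flu/toc33-1 from 13165 to 14782. Median-ratio scaling gave 4872 higher and 6220 lower. With the replicate number as a block 10948 genes were called, and 97.2% of the original calls were shared with the same sign. Of 18 correlations of same-numbered deviations, 1 exceeded 0.1 (range -0.169 to 0.125). Weak correlations cannot show whether same-numbered libraries were handled together, which the labels do not say.

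Class sizes depended on cut-offs. On leaving out a library they stayed within 560 to 695 lost, 615 to 632 weaker, 897 to 948 kept, 1045 to 1068 stronger, 894 to 933 gained and 89 to 105 reversed. A pseudocount of 5 gave 366 weaker, 574 gained and 32 reversed, and a pseudocount of 0.1 gave 195 reversed. A responder threshold of 1.5-fold gave 1425 lost, 1765 kept, 2971 gained and 190 reversed, and 4-fold gave 146 lost, 409 weaker, 110 kept, 500 stronger, 69 gained and 17 reversed. A class boundary of 0.25 gave 368 lost, 1018 weaker, 403 kept, 1781 stronger, 391 gained and 201 reversed, and 0.75 gave 360 weaker, 472 stronger, 1429 gained and 44 reversed. With a pseudocount of 5, 43.9% of lost, 57.9% of weaker, 52.8% of kept, 49.9% of gained and 32.7% of reversed genes remained in their class.

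List medians that changed sign included tetrapyrrole synthesis at -0.0427, carotenoid synthesis at -0.0171, aquaporins at -0.0127, antenna proteins at -0.0581, xyloglucan enzymes at -0.0757, the electrophile list at -0.0780, NAC factors at -0.0471 and glutathione transferases at -0.0968 with median-ratio scaling, photomorphogenesis at 0.0313, the electrophile list at -0.0236, NAC factors at -0.0485 and glutathione transferases at -0.0137 with quantile scaling, starch breakdown at -0.0169 with a pseudocount of 0.1, and cytochromes P450 at -0.00883, expansins at -0.19, aquaporins at -0.14 and NAC factors at -0.46 with a filter at 5 TPM. Medians of the xyloglucan, photosystem, photomorphogenesis, electrophile, guard cell, NAC and glutathione transferase lists, all near 0, also changed sign without single libraries. Of single genes named, CRU3 turned to -1.62 (limma, Benjamini-Hochberg adjusted p = 0.444) and SIG5 to 0.85 (limma, Benjamini-Hochberg adjusted p = 0.00119) on the square root of TPM, 18 of the single-gene values dropped out of the call, 12 entered it and 4868 held direction and call. The causes were not tested. Depth was unknown, and 3 libraries a group and 1 time point limit precision.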

Other observations

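Families found by gene symbol or synonym gave further values. Of 21 proteasome subunits, 15 had a higher and 0 a lower light response in the double mutant, with a median of 0.24, and the number higher was 5 after median-ratio scaling. Core and linker histones had 11 of 15 higher and 2 lower, with a median of 0.54, HTA10 with 0.83 and HIS4 with 0.83. Arabinogalactan proteins, which are cell wall glycoproteins, had 27 of 40 higher and 8 lower, AGP1 with -2.36 and FLA15 with 2.11. Splicing factors had 9 of 15 higher and 2 lower, the stress-induced SR45a with 1.54. Cytochromes P450 had 49 of 124 higher and 35 lower, glutathione transferases 13 of 40 higher and 7 lower, expansins 9 of 23 higher and 9 lower, and aquaporins 10 of 27 higher and 11 lower, with the plasma membrane forms PIP2B and PIP1C at -1.46 and -1.18.

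Peroxide and superoxide scavenging had 14 of 26 genes higher and 6 lower, which became 11 and 10 after median-ratio scaling. The iron store FER1 had -0.90 and VTC2, a rate-limiting enzyme of ascorbate synthesis, 0.86. Electrophile detoxification and mitochondrial stress had 10 of 28 higher and 8 lower, and the alternative oxidase AOX1A had 1.33.

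Most organelle genome genes had no called interaction, while 56.7% of all genes tested had one. Median light responses were 0.117 in flu and 0.040 in flu/toc33-1 for the plastid genome, and 0.0095 and 0.143 for the mitochondrial genome. Of 86 plastid genome genes tested, 6 were higher, 15 lower and 65 not called, with a median interaction of -0.026, and of 38 mitochondrial genome genes 3 were higher, 1 lower and 34 not called, with a median of 0.107.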
